A study of Mus musculus with 2 samples.

Results

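Inflammatory or cyclic-AMP signals are known to induce the 7 mature miRNAs mmu-miR-146a-5p, mmu-miR-146b-5p, mmu-miR-155-5p, mmu-miR-132-3p, mmu-miR-132-5p, mmu-miR-212-3p and mmu-miR-212-5p (the mmu- prefix, for mouse, is left out from here on). These miRNAs were measured in RNA recovered with proteins that a desmoplakin fusion had labelled with biotin in mouse keratinocytes. They were chosen by name, as miRNAs induced through NF-kB or CREB, and made up 7 of the 1477 miRNA names with at least 1 count in either library. All 7 were found, 6 in replicate 1, 5 in replicate 2 and 4 in both. Of all 1477 names, 1231 were found in replicate 1, 1232 in replicate 2 and 986 in both. The series comprised 1 group of 2 libraries, labelled as replicates 1 and 2. The cells were skin keratinocytes of the mouse, grown in low-calcium medium, made to express desmoplakin fused to the biotin ligase BirA from an added construct, and given biotin. The fused BirA served to biotinylate neighbouring proteins, and streptavidin beads recovered the biotinylated proteins with their RNA. Desmoplakin anchors keratin filaments at the desmosome. Where in the cells the labelling took place was not examined here. The construct was an overexpressed one, its promoter is not given in the sources used here, and nothing in the labels says whether the replicates came from separate cultures.

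The genes of miR-146, miR-155, miR-132 and miR-212 are textbook examples of miRNAs switched on by signalling. NF-kB raises miR-146a and miR-155 in cells of the innate immune system and in epithelia. miR-146a and miR-146b repress Traf6 and Irak1, adaptors of Toll-like and interleukin-1 receptors, and so damp the pathway that induces them, whereas miR-155 represses Socs1, an inhibitor of cytokine signalling. CREB, the transcription factor activated by cyclic AMP and calcium, drives the shared locus of miR-132 and miR-212, best studied in neurons, and miR-132 also rises in keratinocytes of healing skin wounds. Each hairpin precursor is cut into a 5p and a 3p arm, and usually one of them is kept by an Argonaute protein, which finds targets through the seed, bases 2 to 8.

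The mature sequences are shown, with the seed in capitals, because they divide the 7 miRNAs into 5 seeds and show which names reads could be confused between. They are from RefSeq (GRCm38.p6) and all 7 matched by name.
miR-146a-5p: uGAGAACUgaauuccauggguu
miR-146b-5p: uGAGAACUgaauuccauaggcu
miR-155-5p: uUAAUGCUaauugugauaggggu
miR-132-3p: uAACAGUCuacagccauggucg
miR-212-3p: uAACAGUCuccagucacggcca
miR-132-5p: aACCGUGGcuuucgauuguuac
miR-212-5p: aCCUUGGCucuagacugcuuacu

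miR-146a-5p and miR-146b-5p had the same seed and were identical at 20 of 22 bases. Counted from the 5′ end, with the miR-146a-5p base first, they differed by G18A and U21C, both near the 3′ end. miR-132-3p and miR-212-3p also had a common seed and were identical at 17 of 22 bases, with A10C, C14U, U17C, U20C and G22A (miR-132-3p base first). miR-132-5p and miR-212-5p had different seeds: the sequences aligned best with a shift of 1 base, at which 14 of 21 bases were identical. No other RefSeq mouse miRNA had the seed of miR-155-5p, miR-132-5p or miR-212-5p, and none outside these pairs had either of the paired seeds.

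The hairpins lie at 4 places in the genome. Mir212 (chr11:75173388-75173478) and Mir132 (chr11:75173682-75173747) are on the plus strand with 203 bases between them, and neither overlaps another RefSeq gene. Their neighbours in gene order are Hic1 on the side of Mir212 and Ovca2 on that of Mir132. The gene of miR-146a, named Mir146 in the table, is at chr11:43374397-43374461 on the minus strand and overlaps no other gene. Mir146b (chr19:46342762-46342870, plus strand) lies within the bounds of the long non-coding RNA gene Gm36493. Mir155 (chr16:84714140-84714204, plus strand) lies within those of Mir155hg, its non-coding host gene. Exon and intron positions within the host genes were not analysed here.

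The 7 miRNAs made up a small share of the miRNA counts. Together they had 656 counts in replicate 1 and 661 in replicate 2, in libraries of 3776893 and 4122955 miRNA counts. That is 0.0174% of replicate 1 (Wilson 95% interval 0.0161% to 0.01875%) and 0.0160% of replicate 2 (0.0149% to 0.0173%), or 0.0167% ± 0.000945 (SD, n = 2). These intervals cover counting error only, since PCR copies of one molecule are not independent reads. How such copies were handled is not given in the sources used here. The median of the 7 mean levels was 3.76 CPM (counts per 1000000 miRNA counts), against 4.99 CPM over all 1477 names. The libraries lack an input or unlabelled counterpart among those analysed here, so a level describes what was captured and not its enrichment. Fewer cells that make a miRNA and less of it per cell cannot be told apart.

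miR-146b-5p and miR-132-3p carried most of the set. They held 82.6% of its counts in replicate 1 and 91.7% in replicate 2, and the other 5 names shared the remaining 114 and 55 counts. miR-146b-5p had 367 counts (97.2 CPM) in replicate 1 and 331 (80.3 CPM) in replicate 2, and ranked 240 and 254 among all names. miR-132-3p had 175 counts (46.3 CPM) and 275 (66.7 CPM), and ranked 297 and 268. Both were thus present in both libraries, with miR-146b-5p the higher in each. miR-212-3p came next in replicate 1 with 61 counts (16.2 CPM), and had 20 (4.85 CPM) in replicate 2, where miR-146a-5p was above it.

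**Figure D1:**
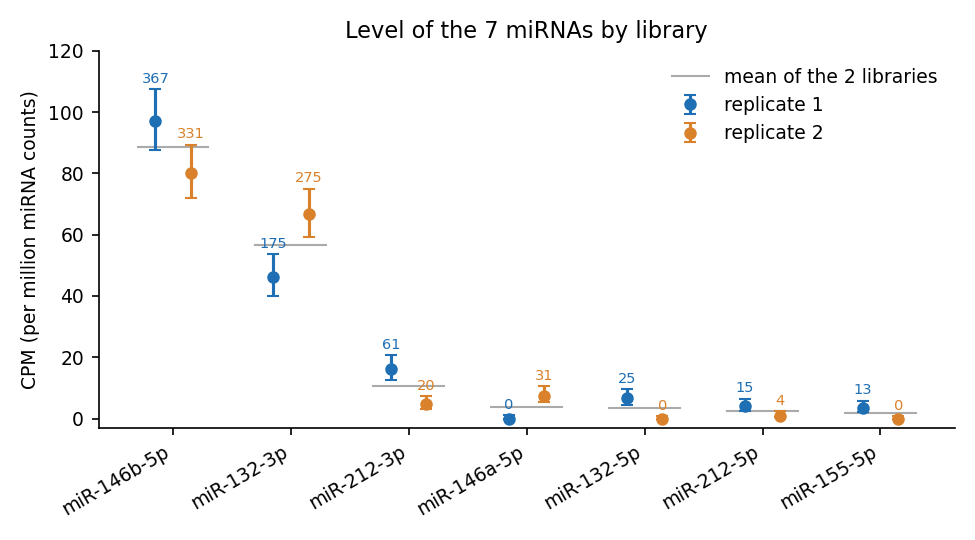
Level of each of the 7 miRNAs in CPM in replicate 1 and replicate 2, with Wilson 95% intervals as bars, counts printed above the points and the mean of the 2 libraries as a grey line. miR-146b-5p and miR-132-3p stand above 40 CPM in both libraries, and 3 of the other 5 names have 0 counts in one of them.

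The remaining 4 names were at the edge of detection. miR-146a-5p had 0 counts in replicate 1 and 31 (7.52 CPM) in replicate 2. miR-132-5p had 25 counts (6.62 CPM) and 0, and miR-155-5p 13 (3.44 CPM) and 0. miR-212-5p was low in both, with 15 counts (3.97 CPM) and 4 (0.970 CPM). A count of 0 allows up to 3 counts, which is 0.794 CPM in replicate 1 and 0.728 CPM in replicate 2, so miR-146a-5p, miR-132-5p and miR-155-5p were each not detectable in one library rather than shown to be absent.

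By mean level the order was miR-146b-5p with 88.7 ± 11.9 CPM, miR-132-3p with 56.5 ± 14.4, miR-212-3p with 10.5 ± 7.99, miR-146a-5p with 3.76 ± 5.32, miR-132-5p with 3.31 ± 4.68, miR-212-5p with 2.47 ± 2.12 and miR-155-5p with 1.72 ± 2.43 CPM (SD, n = 2). Each name covers 22 or 23 bases, so the CPM values need little correction for length, but ligation efficiency can differ between miRNAs. miR-146b-5p exceeded miR-132-3p by 32.2 ± 26.3 CPM and miR-132-3p exceeded miR-212-3p by 46.0 ± 22.4 CPM, in both libraries and by more than the SD of the difference. Between miR-212-3p and miR-146a-5p, miR-146a-5p and miR-132-5p, and miR-132-5p and miR-212-5p the order turned around between the libraries, so those neighbours did not differ beyond their spread. miR-212-5p stood above miR-155-5p by 0.750 ± 0.312 CPM, a gap of 2 counts in replicate 1 and 4 in replicate 2. An exact sign-flip test (two-sided) of 2 paired values can give no p under 0.5, so none of these gaps was tested.

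The libraries were set against each other name by name, using a two-sided exact binomial test on the split of counts. It was run wherever the mean count reached 10, with Benjamini-Hochberg adjustment over all 1002 such names. This compares 2 libraries and not 2 conditions. Of the 7 miRNAs, 5 reached the count minimum and all 5 passed the adjusted threshold of 0.05, 2 with more in replicate 2 and 3 with more in replicate 1. The background was high: the test called 70.6% of all names tested, 36.2% with more in replicate 2 and 34.3% with more in replicate 1. The count of 5 is read against that background and not as a property of the set. miR-146a-5p and miR-132-5p passed the minimum through one library alone and so had to differ. When counts were divided by 20.7, the average variance-to-mean index of names with 10 to 300 counts between these libraries, the exact binomial test was run on all 1139 names left with a count, the 7 included, and called 0 of the 7 (0 also at an unadjusted p under 0.05) and 1.4% of those names. The index came from these same libraries and the division lowers every count, so a drop in calls was built in. Names with few counts, such as miR-155-5p with 13 and 0, could not pass whatever their split.

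The well-counted names differed least. miR-146b-5p had a log2 ratio of replicate 2 over replicate 1 of -0.28 (exact 95% interval -0.49 to -0.06; exact binomial adjusted p = 0.0186), the only one of the 5 above 0.01. For miR-132-3p the log2 ratio was 0.53 (0.25 to 0.81; exact binomial adjusted p = 0.000298). miR-212-3p, from the adjacent hairpin, went the other way with -1.74 (-2.54 to -0.99; exact binomial adjusted p = 1.50e-06). miR-212-5p, under the count minimum, had a log2 ratio of -2.03 (-4.08 to -0.38) and no test. Set against 3 counts in the library at 0, miR-146a-5p was 9.47-fold higher in replicate 2 and miR-132-5p 9.10-fold higher in replicate 1. On the same basis miR-155-5p was 4.73-fold higher in replicate 1, and it was not tested. These folds take the observed count of the other library without its counting error, so they are not lower bounds.

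Splits of this kind were common at the same depth. Of the 400 names averaging 10 to 30 counts, the range of miR-146a-5p and miR-132-5p, 34.8% had 0 counts in one library. From 3 to 10 counts, the range of miR-155-5p and miR-212-5p, 62.2% of 262 names did. No name with a mean of 100 to 1000 counts was missing from a library. For names found in both, the SD of the log2 ratio was 1.71 from 30 to 100 counts (miR-212-3p), 1.04 from 100 to 300 (miR-132-3p) and 0.48 from 300 to 1000 (miR-146b-5p). The log2 ratios of miR-132-3p and miR-146b-5p lay within these SDs, and that of miR-212-3p just outside.

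**Figure D2:**
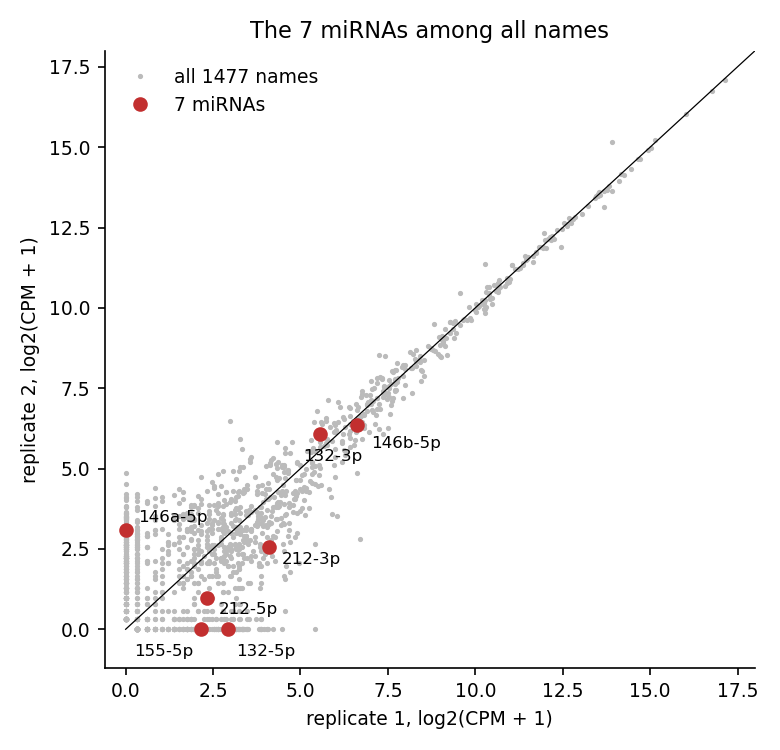
Level in replicate 2 against level in replicate 1 for all 1477 miRNA names (grey) and the 7 miRNAs (red), each as log2(CPM + 1), with the line of equal levels. miR-146b-5p and miR-132-3p lie near the line, miR-212-3p and miR-212-5p lie below it, and the 3 names at 0 in one library lie on an axis among many grey points.

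The 2 5p names of the miR-146 family differed in their counts. In replicate 1 the count of miR-146a-5p was 0 beside 367 for miR-146b-5p, with an exact 95% upper limit of 0.0101 for the ratio. In replicate 2 the ratio was 0.0937 (exact 95% interval 0.0626 to 0.136), with 31 counts beside 331. miR-146b-5p was therefore the main source of the common seed in both libraries, by counts. The ratio averaged 0.0468 ± 0.0662 (SD, n = 2). How reads that fit both names were assigned is not given in the sources used here, and a read that stops before base 18 cannot tell them apart. With both names summed, the counts were 367 and 362, and the sum did not pass the test between libraries. The 3p arms had the opposite order at low counts, 11 and 15 for miR-146a-3p against 6 and 0 for miR-146b-3p. With both arms summed, miR-146a had 11 and 46 counts and miR-146b 373 and 331. Nearly all counts of miR-146b came from its 5p arm, so these sums carry the same doubt about read assignment. No difference between the 2 genes as a whole is read from them.

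The shared locus of miR-132 and miR-212 had similar totals in the 2 libraries, while its parts differed. Its 4 names had 276 counts (73.1 CPM) in replicate 1 and 299 (72.5 CPM) in replicate 2, a mean of 72.8 ± 0.393 CPM (SD, n = 2). The Wilson 95% intervals were 0.00649% to 0.00822% of the miRNA counts in replicate 1 and 0.00648% to 0.00812% in replicate 2. The SD is far smaller than these intervals, so no steadiness of the locus is read from that total. Within that total the split between the adjacent hairpins was uneven. miR-132-3p had 2.87 times the counts of miR-212-3p in replicate 1 (exact 95% interval 2.13 to 3.91) and 13.75 times in replicate 2 (8.73 to 22.9), so miR-132-3p was the higher in both. The intervals cover counting error only, and log2 ratios of single names at these depths had SDs of 1.71 and 1.04 between the libraries, so no shift between the hairpins is read from the 2 ratios. The 2 3p arms with the common seed summed to 236 and 295 counts, or 67.0 ± 6.41 CPM, and the 2 5p arms to 40 and 4.

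Arm use was read from the hairpins, shown here with both mature arms in capitals, the 5p arm first, for the 2 adjacent hairpins and for the one whose 3p arm had most of its counts in the only library that recorded it (RefSeq, GRCm38.p6, in the direction of the transcript).
Mir132: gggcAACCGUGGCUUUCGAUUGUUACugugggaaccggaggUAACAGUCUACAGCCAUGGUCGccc
Mir212: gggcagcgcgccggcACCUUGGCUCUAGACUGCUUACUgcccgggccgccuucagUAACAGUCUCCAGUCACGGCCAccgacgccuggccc
Mir155: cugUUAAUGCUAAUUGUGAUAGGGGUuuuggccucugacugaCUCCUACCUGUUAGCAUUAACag

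The 3p arm dominated the miR-132 hairpin. It held 87.5% of 200 counts in replicate 1 (Wilson 95% interval 82.2% to 91.4%) and 100% of 275 in replicate 2 (98.6% to 100%), or 93.75% ± 8.84 (SD, n = 2). The excess over an even split passed an exact binomial test adjusted over 164 hairpins in both libraries (adjusted p = 8.14e-29 in replicate 1 and 4.74e-83 in replicate 2), but not on the divided counts (exact binomial adjusted p = 0.135 in the weaker library). The miR-212 hairpin was under the minimum of 100 counts per library and was not tested. Its 3p arm held 80.3% of 76 counts (70.0% to 87.7%) and 83.3% of 24 (64.1% to 93.3%), or 81.8% ± 2.17 (SD, n = 2). The 3p arm thus led in both hairpins of the locus and in both libraries.

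miR-146b showed the opposite asymmetry, in favour of its 5p arm. The 5p arm held 98.4% of 373 counts in replicate 1 (Wilson 95% interval 96.5% to 99.3%) and 100% of 331 in replicate 2 (98.9% to 100%), and miR-146b-3p had 6 counts and 0. A dominant arm was common: of the 164 hairpins tested, 91.5% had the same arm ahead and past the threshold in both libraries, miR-132 and miR-146b among them. In the miR-146a hairpin the arms went different ways, with 0 counts for the 5p and 11 for the 3p arm in replicate 1 against 31 and 15 in replicate 2. miR-146a-3p was low but present in both libraries (2.91 and 3.64 CPM), and did not pass the test between them (exact binomial adjusted p = 0.739), so the gene was recorded in replicate 1 through its 3p arm only.

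The miR-155 hairpin was recorded in replicate 1 alone, and mostly from its less usual arm. miR-155-5p, the arm usually kept, had 13 counts there and miR-155-3p had 55 (14.6 CPM), so the 3p arm held 80.9% of 68 counts (Wilson 95% interval 70.0% to 88.5%). Replicate 2 had 0 counts of both arms, which was taken to allow up to 3 counts, or 0.728 CPM, for the hairpin. The Wilson upper limit for either arm there was higher, at 0.932 CPM, and both limits cover counting error only. Set against those 3 counts, the sum of the arms was 24.7-fold higher in replicate 1, which is not a lower bound. With a mean of 27.5 counts, miR-155-3p lay near the top of the class in which 34.8% of names had 0 in one library, and in the next class, from 30 to 100 counts, 10 of 244 names (4.10%) did.

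**Figure D3:**
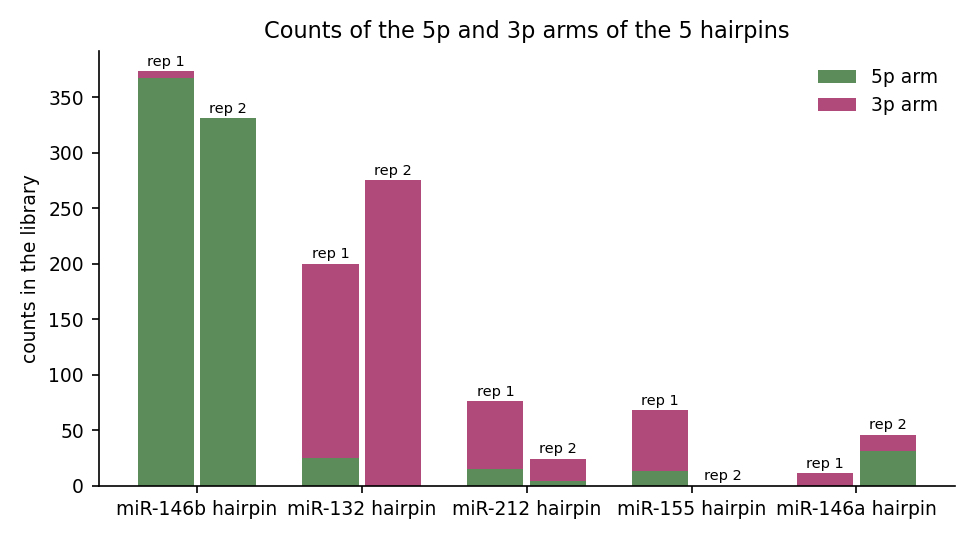
Counts of the 5p arm (green) and 3p arm (pink) of the 5 hairpins in each library, stacked. The miR-146b bars are nearly all 5p, the miR-132 and miR-212 bars mostly 3p, and miR-155 has a bar in replicate 1 only, 55 of its 68 counts from the 3p arm.

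A property not used to choose the 7 miRNAs was their first base. The 5 that begin with U, a base that Argonautes are known to favour at the 5′ end, held 93.9% of the set's counts in replicate 1 and 99.4% in replicate 2. The 2 that begin with A, miR-132-5p and miR-212-5p, held the remainder. Among the 1231 names with a RefSeq sequence, 500 begin with U and held 64.2% ± 0.586 of those names' counts (SD, n = 2). Within the set the names beginning with A were also the less abundant arms of their hairpins, so base and arm cannot be told apart.

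The names nearest to each miRNA in level, by distance in log2(CPM + 1) over the 2 libraries, were miR-3968 for miR-146b-5p (distance 0.095), miR-378a-5p for miR-132-3p (0.025), miR-370-3p for miR-212-3p (0.076) and miR-488-3p for miR-212-5p (0.15). miR-378a-5p, for example, had 172 and 274 counts where miR-132-3p had 175 and 275. miR-6948-5p had exactly the counts of miR-132-5p, while 4 names tied with miR-146a-5p and 5 with miR-155-5p. Over 2 libraries such likeness is one of level only.

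Markers of other cell types were counted beside the set. Of 7 names associated with leukocytes and other blood cells, 3 were found in replicate 1 and 5 in replicate 2, with a summed level of 6.09 and 17.7 CPM. Of the leukocyte names, miR-142-3p had 15 counts and 0, miR-142-5p 0 and 16, miR-223-3p 2 and 4, and miR-150-5p 6 and 22. Of the names best known from red blood cells, miR-144-3p had 0 and 24, miR-451a 0 and 7, and miR-486a-5p was at 0 in both. The sum was the higher in replicate 2, through miR-144-3p, miR-150-5p and miR-451a, in the library with the counts of miR-146a-5p and without those of miR-155. Of 5 neural names, miR-124-3p had 12 counts and 0 and miR-137-3p was at 0 in both, whereas miR-9-5p (418 and 419 counts) and miR-219a-5p (533 and 417) kept the neural sum at 258 and 228 CPM. The mesenchymal list had 24.9 and 99.7 CPM. That rise was in miR-214-3p alone (26 and 364 counts), while miR-143-3p (10 and 0), miR-145a-5p (23 and 16) and miR-199a-3p (35 and 31) had fewer counts in replicate 2. The part of such cells in the levels of the 7 miRNAs was not tested. All 7 epithelial names were found in both libraries, with 636 ± 37.4 times the counts of the set (SD, n = 2), so the epithelial markers were present in the cells labelled keratinocytes.

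The summed level of other miRNAs known to respond to inflammation, stress or wounding was far higher than that of the set. Some of these names, given below, were at or below levels found within the set. The list was chosen with earlier results of these data known and held miR-31-5p, the most abundant name. Its level therefore does not describe such miRNAs in general. All 10 names of that list were found in both libraries, with a median level of 2180 CPM. The most abundant were miR-31-5p with 142121 ± 3663 CPM and miR-21a-5p, which NF-kB and STAT3 signals raise, with 31269 ± 254 CPM (SD, n = 2). At the low end were miR-187-3p (51 and 46 counts), miR-147-3p (6 and 70) and miR-223-3p (2 and 4), with means of 12.3, 9.28 and 0.750 CPM beside 10.5 CPM for miR-212-3p. Of the 9 names with enough counts, the exact binomial test called 5 different between replicates, 2 with more in replicate 2 and 3 with more in replicate 1, against the 70.6% of all names. The list thus ran from the most abundant name of the libraries to miR-223-3p, and miR-146b-5p was below miR-9-5p (106.1 ± 6.40 CPM) in both libraries.

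The summed counts of the 7 were lower in both libraries than those of the inducible or immune-related miRNAs below. These were also chosen with earlier results of these data known. The lists overlap, so they are not separate comparisons. The 10 names above include miR-21a-5p, miR-9-5p of the neural list and miR-203-3p of the epithelial list. miR-221-3p and miR-222-3p together had 35.7 ± 4.42 times the counts of the set, the 4 members of the miR-181 family 4.63 ± 0.135 times and miR-21a-5p alone 187 ± 9.09 times (SD, n = 2). The ratio to the miR-181 family was 4.53 in replicate 1 and 4.72 in replicate 2. The least abundant of that family, miR-181c-5p, had 374 and 495 counts, above miR-146b-5p in both libraries, by 7 counts in replicate 1. These ratios exceed 1 by more than their SD and were not tested.

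**Figure D4:**
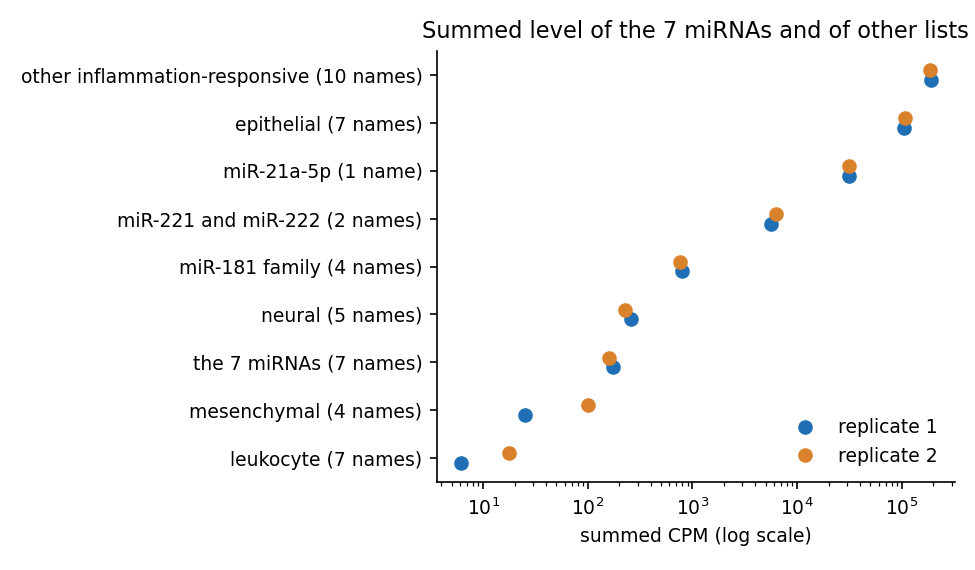
Summed CPM, on a log axis, of the 7 miRNAs and of the other lists in replicate 1 and replicate 2. The 7 miRNAs, at 174 and 160 CPM, lie below the neural list and the miR-181 family and above the leukocyte list, and the mesenchymal list, through miR-214-3p, and the leukocyte list differ most between the libraries.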

How the data were processed

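The authors deposited 1 table of whole-number counts per mature miRNA name for each library, not normalised. The submitters' processing notes name cutadapt, Novoalign and the build mm10. The counter, the handling of PCR copies and of reads fitting several miRNAs, and whether reads in miRNA-target chimeras were included are not given in the sources used here. Unlisted names were set to 0. Rows that name no miRNA were left out (0.00265% of counts in replicate 1 and 0.000218% in replicate 2).

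CPM values, Wilson and exact (Clopper-Pearson) 95% intervals and exact binomial tests were computed with scipy 1.17.1 in Python 3.11.15 (pandas 2.3.3 for tables, numpy 2.4.6 for arithmetic, matplotlib 3.10.9 for figures). edgeR 4.0.16 (TMM) and DESeq2 1.42.0 under R 4.3.3 supplied alternative scalings only, because 1 group allows no test between conditions. The binomial tests between libraries and between arms were first tested on simulated counts.

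The 7 miRNAs and all lists were chosen with earlier results of these data known. Other names in the text are the other arms, names of the fixed lists, and the nearest names in level. Alternatives covered scaling, totals, count minimums, thresholds, summing and leaving out each library. Sequences were not found for 16.7% of the names.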

Additional observations from a re-analysis of the deposited data

Results flagged for a closer look

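The row Cali_12 is no miRNA name and entered no comparison. It held 99 counts in the first library and 9 in the second, both above the 3 counts that a row at 0 was taken to allow.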

How the results depend on the processing

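The share of the 7 miRNAs was 0.0178% with both arms of each hairpin summed and 0.0195% in a total without miR-31-5p, which follows from the added names and the smaller total, and moved by less than its SD under the other scalings and totals. The exact binomial test between the libraries called 5 of the 7 under TMM factors (70.7% of all names tested) and DESeq2 factors (70.0%), 7 with no count minimum (61.1%), 4 at an adjusted p under 0.01 (63.7%), 2 at a minimum mean of 100 counts, where 2 of the 7 were tested (70.9%), 3 with a 2-fold ratio also required (44.0%), 3 with miR-146a-5p and miR-146b-5p summed (70.4%), and all 5 hairpins with arms summed (69.1%). It called 0 (1.4%) when counts were divided by 20.7, the variance-to-mean index of these libraries (0 of 7 also at an unadjusted p under 0.05), so a drop is built in. Under that division the miR-132-3p share of its hairpin was 94.4% and no longer passed (exact binomial adjusted p = 0.135), and the miR-212-3p share was 87.5%. No called direction reversed. Single levels stayed within their SD in 34 of 35 recomputations. Leaving out each library gave ranges of 0.0160% to 0.0174% for the share, 87.5% to 100% for miR-132-3p, 80.3% to 83.3% for miR-212-3p, 2.87 to 13.75 for miR-132-3p over miR-212-3p and 0 to 0.0937 for miR-146a-5p over miR-146b-5p. The miR-132 hairpin could not be tested at a minimum of 1000 counts. No paired analysis was possible because the series has a single group. Depth limits the 5 names with a mean under 100 counts.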
